A study of Oryza sativa with 36 samples.

Results

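The genes described here encode the small subunit of Rubisco and enzymes of the Calvin cycle, the carbon-fixing pathway of the chloroplast. They are 10 of the 55986 genes in the deposited rice leaf RNA-seq tables and were taken by identifier from a list of named genes, a rule that uses no measured value. The list itself was chosen with earlier results of these data known. The list holds 3 copies of RBCS, the nuclear gene of the Rubisco small subunit, on chromosome 12 (LOC_Os12g17600, LOC_Os12g19381 and LOC_Os12g19470), and Rubisco activase on chromosome 11 (LOC_Os11g47970). It also holds plastid phosphoglycerate kinase (PGK, LOC_Os05g41640, chromosome 5), the A and B subunits of plastid glyceraldehyde-3-phosphate dehydrogenase (GAPA, LOC_Os04g38600, chromosome 4, and GAPB, LOC_Os03g03720, chromosome 3) and plastid aldolase (LOC_Os11g07020, chromosome 11). The others are sedoheptulose-1,7-bisphosphatase (SBPase, LOC_Os04g16680, chromosome 4) and phosphoribulokinase (PRK, LOC_Os02g47020, chromosome 2). The names are those of the list, since the deposited tables pair no identifier with a name, and the chromosomes were read from the identifiers. All 10 genes were present in the count and FPKM tables and passed the filter on low counts.

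The study profiled leaves of japonica rice (TNG67) at the tillering stage, grown in a greenhouse under natural light, in 9 groups of 2 biological replicates. The 8 groups named PB, AMT+Ab, AMT+Hb, AgBi, AgTi, Ag, Callus+AM and Callus are read from the growth protocol as plants regenerated from calli that had passed through different combinations of transformation treatments, and Seedling plants came directly from seed. No long form of the group abbreviations was found in the labels, and no transgene, age in days or hour of sampling is given. RNA had been extracted with a column kit or with Trizol, without a statement of which libraries had which.

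Rubisco joins carbon dioxide to ribulose-1,5-bisphosphate. Its large subunit is encoded in the chloroplast genome and its small subunit by a nuclear gene family, and Rubisco activase removes inhibitory sugar phosphates from its active sites. PGK and the GAPA and GAPB subunits carry out the reduction of 3-phosphoglycerate to triose phosphate. Aldolase, SBPase and PRK act in the regeneration of ribulose-1,5-bisphosphate, PRK in its last step. In leaves these nuclear genes are among the most highly expressed, and their transcripts are known to depend on light, time of day, sugar status and leaf age.

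The 14 libraries of the 7 groups other than Seedling and Callus held 26609812 to 33222427 counts, and the 4 Callus and Seedling libraries held 41582054 to 52643973, so depth and group differ together in every comparison with Seedling. The gap was smallest for Callus, whose libraries held 41582054 and 48498469 counts, against 49785176 and 52643973 in the Seedling libraries. Levels are given as CPM, library-size scaled counts with edgeR's TMM factors, and as the deposited FPKM where genes are compared with each other. Every change is from edgeR's quasi-likelihood test on all 26374 genes that passed the filter, with p-values adjusted over all of them, and a gene is said to have fallen or risen only at an adjusted p below 0.05. Among all tested genes the median log2 fold change against Seedling lay between 0 and 0.161 in the 8 comparisons. With library totals alone, without TMM factors, that median moved to between 0.307 and 0.866. On that scale each change from Seedling reported below is to be read against it. Fewer cells of a type and less RNA per cell cannot be told apart in bulk leaf RNA, and the RBCS copies may share reads, which makes their split uncertain. In the test for any difference among the 9 groups all 10 genes passed, with adjusted p between 6.08e-05 for Rubisco activase and 0.0378 for LOC_Os12g17600, where 63.0% of all tested genes passed.

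Every comparison with Seedling rests on the same 2 Seedling libraries, so the counts below are not independent of each other. Across regenerated plants as a whole, 9 of the 10 genes fell against Seedling in the equal-weight mean of the 8 groups, where 20.5% of all tested genes were called lower, and none rose. The median log2 fold change of the 10 genes was -1.67, against 0.0675 for all tested genes. Rubisco activase fell most, 13.9-fold (log2 fold change -3.80, SE 0.288, edgeR adjusted p = 1.43e-06), followed by aldolase at 7.43-fold, GAPA at 5.74-fold, GAPB at 4.44-fold and PRK at 4.05-fold. PGK, SBPase and the RBCS copies LOC_Os12g19470 and LOC_Os12g19381 fell by 1.32, 1.16, 1.14 and 0.97 on the log2 scale. The RBCS copy LOC_Os12g17600 did not pass (log2 fold change -1.01, SE 0.467, edgeR adjusted p = 0.108). For activase, aldolase, GAPA, GAPB and PRK all 16 regenerated libraries lay below both Seedling libraries, 5 of the 10 genes where 19.8% of all tested genes had no overlap in either direction, while PGK and SBPase were below both in 15 of 16 and the RBCS copies in 11 to 13 of 16. Without Seedling replicate 1 the calls of PGK, SBPase and the RBCS copies LOC_Os12g19381 and LOC_Os12g19470 ended. Their log2 fold changes were then -0.90, -1.05, -0.49 and -0.84, in that order. Calls over all genes were also fewer in that fit. Without Ag replicate 1 LOC_Os12g17600 passed as well (log2 fold change -1.23). With library totals alone 6 of the 10 passed, the exceptions being the 3 RBCS copies and SBPase. On that scale 11768 of all tested genes were called in either direction, against 9910 with TMM, and the median log2 fold change of all genes was 0.632.

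Of the 24 comparisons of a small subunit copy with Seedling 4 passed with edgeR, all 3 copies in PB and 1 copy in AMT+Ab. By group, 10.1% (Callus) to 18.4% (PB) of all tested genes were called lower than Seedling, and 4 of 24 lies within that range. LOC_Os12g17600 stood at 646 and 441 CPM in the PB libraries, 3386 and 7768 in AMT+Ab, 3698 and 3838 in AMT+Hb, 7262 and 3759 in AgBi and 2795 and 4784 in AgTi. In Ag it stood at 6366 and 1089 CPM, in Callus+AM at 1528 and 2117, in Callus at 4927 and 3548 and in Seedling at 7826 and 4295. PB, AMT+Hb and Callus+AM had both libraries below both Seedling libraries, PB by the widest margin, and the Ag libraries were further apart than any other pair. LOC_Os12g19381 stood at 1094 and 813 CPM in PB, 3893 and 4166 in AMT+Ab, 4849 and 5125 in AMT+Hb, 4676 and 2886 in AgBi and 4611 and 5534 in AgTi. The Ag libraries held 6048 and 3825 CPM, the Callus+AM libraries 3397 and 3334, the Callus libraries 5107 and 3719 and the Seedling libraries 8931 and 5078. This copy thus kept to between 2886 and 6048 CPM in every regenerated library outside PB, and PB was the one group below that range.

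LOC_Os12g19470, the least abundant of the 3 listed copies, stood at 101 and 87.2 CPM in PB, 339 and 419 in AMT+Ab, 896 and 1080.3 in AMT+Hb, 1337 and 540.0 in AgBi and 847 and 1245 in AgTi. Ag libraries had 1001 and 445 CPM, the Callus+AM libraries 544 and 768, the Callus libraries 845 and 659.9 and the Seedling libraries 1495 and 1046. PB was lowest without overlap with any other group, and AMT+Ab came next, also without overlap. In PB the 3 copies fell 11.1-fold, 7.35-fold and 13.5-fold against Seedling, in the order LOC_Os12g17600 (edgeR adjusted p = 0.00435), LOC_Os12g19381 (edgeR adjusted p = 0.000449) and LOC_Os12g19470 (edgeR adjusted p = 0.000359). Outside PB, 1 of 21 comparisons of a copy with Seedling passed with edgeR and 4 of 21 with DESeq2. In those groups edgeR called 10.1% (Callus) to 16.7% (AMT+Hb) of all tested genes lower. DESeq2 called 6620 (Callus) to 10557 (AMT+Hb) of all genes in either direction. The edgeR call was that of LOC_Os12g19470 in AMT+Ab (log2 fold change -1.75, SE 0.468, edgeR adjusted p = 0.0158). That call was lost when AMT+Ab replicate 1, AMT+Ab replicate 2 or Seedling replicate 1 was left out (edgeR adjusted p between 0.0748 and 0.0941). The further DESeq2 calls were LOC_Os12g17600 in Callus+AM (DESeq2 adjusted p = 0.0209) and LOC_Os12g19381 in Callus+AM (0.00656) and AgBi (0.0448), all lower. LOC_Os12g19381 in Callus+AM, at an edgeR adjusted p of 0.0514, also passed with relative log expression factors (0.0441), with library sizes implied by FPKM (0.0456) and without Seedling replicate 2 (0.0404). LOC_Os12g17600 in Ag passed as lower without Ag replicate 1 (edgeR adjusted p = 0.030). The 20 log2 fold changes outside PB that edgeR did not call lay between -1.73 and -0.12, all below 0 with TMM but above 0 for 8 of them with library totals alone. A miss of the threshold in these comparisons does not show that the copies did not differ, since the standard error of the log2 fold change of LOC_Os12g17600 in Ag was 0.685.

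**Figure D1:**
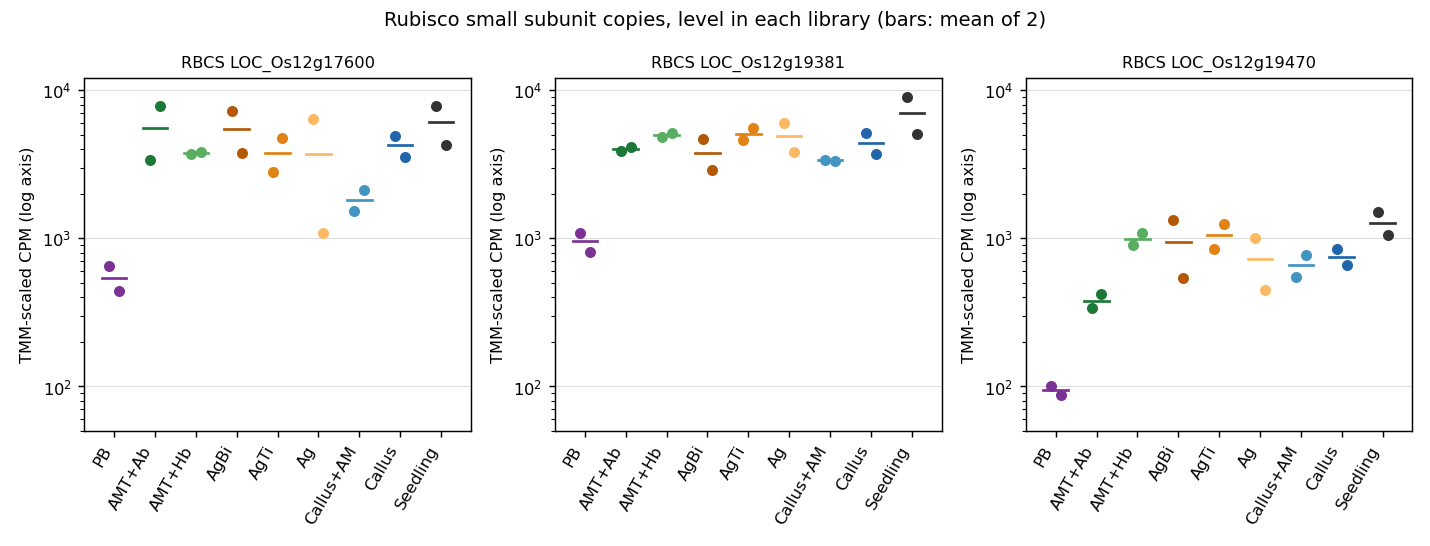
Level of each RBCS copy in TMM-scaled CPM (log axis) in the 18 libraries, by group; points are libraries and bars the means of 2. The PB libraries lie lowest for each copy, at 87.2 to 1094 CPM, and of the 7 other regenerated groups 5 overlap Seedling for LOC_Os12g17600 and 4 for LOC_Os12g19381.

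The 3 copies together made up 0.195 and 0.146% of all counts in the PB libraries and 1.26 and 0.750% in the Seedling libraries. Per length, using FPKM, LOC_Os12g19381 and LOC_Os12g17600 were within the 25 highest genes in both libraries of AMT+Ab, AMT+Hb, AgBi, AgTi, Callus+AM, Callus and Seedling. LOC_Os12g19381 was the most abundant gene of AgTi replicate 2 and ranked 33 and 70 in PB. Among the counts of the 3 listed RBCS copies, LOC_Os12g17600 took 44.4 and 62.9% in AMT+Ab and 54.7 and 52.3% in AgBi. It took 47.5 and 20.3% in Ag and 42.9 and 41.2% in Seedling. LOC_Os12g19470 took 5.47 and 6.50% in PB and 4.45 and 3.39% in AMT+Ab, below the 8.19 and 10.04% in Seedling, with the AMT+Ab and PB libraries lower than those of every other group. These shares are of the counts of the 3 listed copies, leave out any other copy, take no account of gene length and were not tested.

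Rubisco activase had the widest range of the set. It stood at 597 and 675 CPM in the PB libraries, 4739 and 4940.1 in AMT+Ab, 521 and 522 in AMT+Hb, 5533 and 1691 in AgBi and 359.8 and 638 in AgTi. Levels in Ag were 794 and 342 CPM, in Callus+AM 403 and 338, in Callus 871 and 753 and in Seedling 13728 and 11734. Seedling was highest without overlap, AMT+Ab and AgBi formed an intermediate level and overlapped each other, and Callus, PB, Ag, AMT+Hb, AgTi and Callus+AM followed at 871 CPM or less per library. Callus lay above PB without overlap but overlapped Ag, whose replicate 1, at 794 CPM, was above Callus replicate 2, at 753 CPM. PB, Ag, AMT+Hb, AgTi and Callus+AM each overlapped the next group in the order of means. Activase fell in 7 of 8 groups against Seedling, most in Callus+AM, 34.4-fold (log2 fold change -5.10, SE 0.604, edgeR adjusted p = 0.000128). The smallest called fall was in AgBi, 3.52-fold (log2 fold change -1.82, SE 0.523, edgeR adjusted p = 0.0269). In Callus, the group closest to Seedling in depth, it fell 15.7-fold (edgeR adjusted p = 0.000773). AMT+Ab did not pass (log2 fold change -1.40, SE 0.517, edgeR adjusted p = 0.0572), although both of its libraries were below both Seedling libraries. It passed with DESeq2 (adjusted p = 0.0153) and in edgeR with no filter on low counts (adjusted p = 0.0452). The AgBi call ended without AgBi replicate 2, Seedling replicate 1 or Seedling replicate 2 (edgeR adjusted p between 0.077 and 0.155), and its log2 fold change was -2.91 without AgBi replicate 1. In Ag the log2 fold change was -4.49, and -5.22 without Ag replicate 1. By FPKM, activase ranked 183 and 337 among all genes in the Callus+AM libraries and 3 and 5 in Seedling.

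The genes of the reduction steps fell by different amounts. GAPA stood at 193 and 193 CPM in PB, 834 and 771 in AMT+Ab, 432 and 354 in AMT+Hb, 1582 and 602 in AgBi and 293 and 476 in AgTi. Its Ag libraries held 626 and 215 CPM, the Callus+AM libraries 192 and 269, the Callus libraries 629 and 600.3 and the Seedling libraries 2954 and 2146. The lowest groups were PB and Callus+AM, which overlapped each other, and AgBi replicate 1 was the highest regenerated library. GAPA fell in 7 of 8 groups, 13.2-fold in PB (edgeR adjusted p = 0.000588) and 11.05-fold in Callus+AM (edgeR adjusted p = 0.000765), and did not pass in AgBi (log2 fold change -1.22, SE 0.505, edgeR adjusted p = 0.0953). Its Callus call ended without Seedling replicate 1 or either Callus library (edgeR adjusted p between 0.0776 and 0.103), and its AMT+Ab call without any 1 of the 4 libraries compared, AMT+Ab replicates 1 and 2 and Seedling replicates 1 and 2 (edgeR adjusted p between 0.0606 and 0.145). In Ag the log2 fold change of GAPA was -2.60, and -3.56 without Ag replicate 1. In AgBi GAPA passed as lower without AgBi replicate 1 (edgeR adjusted p = 0.0284) and with DESeq2 (adjusted p = 0.0486).

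GAPB stood at 465 and 534 CPM in PB, 1569 and 1929.8 in AMT+Ab, 937 and 850.4 in AMT+Hb, 1771 and 733 in AgBi and 581 and 699.9 in AgTi. For Ag the values were 988 and 536 CPM, in Callus+AM 435 and 639.8, in Callus 875 and 894 and in Seedling 3679 and 3704. The Seedling libraries nearly coincided, and all 16 regenerated libraries were below them. GAPB fell in 7 of 8 groups, most in PB, 7.39-fold (edgeR adjusted p = 0.000594), and least in AgBi, 2.95-fold (edgeR adjusted p = 0.0182), and did not pass in AMT+Ab (log2 fold change -1.08, SE 0.405, edgeR adjusted p = 0.0602), where DESeq2 gave an adjusted p of 0.0206. The AgBi call ended without AgBi replicate 2, Seedling replicate 1 or Seedling replicate 2 (edgeR adjusted p between 0.0661 and 0.121) and the Callus call without Callus replicate 1 (edgeR adjusted p = 0.054). Without AgBi replicate 1 its log2 fold change in AgBi was -2.33, against -1.56 with both libraries. PGK, which precedes the dehydrogenase in the pathway, ranged from 328 to 1555 CPM with a median of 829.9 in regenerated libraries, against 2389.7 and 1444 CPM in Seedling. PB was its lowest group, at 329.8 and 328 CPM, and AgBi replicate 1 overlapped Seedling. PGK fell in 6 of 8 groups, 5.83-fold in PB (edgeR adjusted p = 0.000962) and 2.24-fold to 2.69-fold in AgTi, Ag, AMT+Hb, AMT+Ab and Callus+AM (edgeR adjusted p between 0.0178 and 0.0412). Only the PB call held in every fit without 1 library. The other 5 ended without Seedling replicate 1 (edgeR adjusted p between 0.122 and 0.302). They ended also without Callus+AM replicate 1, Ag replicate 2, or either library of AgTi, AMT+Ab and AMT+Hb, each in its own comparison (edgeR adjusted p between 0.0837 and 0.239), and that of AgTi with the replicate block (edgeR adjusted p = 0.0573). With library totals alone those 5 calls were lost too, and DESeq2 also called PGK lower in Callus (adjusted p = 0.0324).

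Within the regeneration steps, aldolase had the next widest range of levels after activase. It stood at 1313 and 1218 CPM in PB, 4680.2 and 4985 in AMT+Ab, 1002 and 1030.4 in AMT+Hb, 6167 and 3041 in AgBi and 563 and 879 in AgTi. In Ag it was at 1413 and 469 CPM, in Callus+AM at 616 and 1079, in Callus at 1713 and 1723 and in Seedling at 11715 and 10863. Seedling was highest, AMT+Ab and AgBi overlapped each other below it, and Callus followed, above every library of PB, AMT+Hb, AgTi, Ag and Callus+AM. The order of means below Callus was PB, AMT+Hb, Ag, Callus+AM and AgTi, with Ag replicate 1 above both PB libraries. Aldolase fell in 6 of 8 groups, most in AgTi, 15.7-fold (log2 fold change -3.97, SE 0.548, edgeR adjusted p = 0.000305). The smallest called fall was in Callus, 6.57-fold (log2 fold change -2.72, SE 0.518, edgeR adjusted p = 0.00391). All 6 calls held in each fit without 1 library. In AMT+Ab and AgBi it did not pass (log2 fold changes -1.22 and -1.29, edgeR adjusted p 0.0764 and 0.0745), with every library of these groups below both Seedling libraries. DESeq2 called aldolase lower in both (adjusted p 0.0285 in AMT+Ab and 0.0262 in AgBi), and edgeR did in AgBi without AgBi replicate 1 (adjusted p = 0.0487). In Ag the log2 fold change was -3.58, and -4.58 without Ag replicate 1.

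PRK fell against Seedling in all 8 groups, which edgeR, with the filter on low counts, called for no other gene of the 10 and DESeq2 also for activase, GAPA, GAPB and aldolase. It stood at 393 and 309.5 CPM in PB, 694 and 679 in AMT+Ab, 398 and 466 in AMT+Hb, 1248 and 678 in AgBi and 441 and 621 in AgTi. Ag stood at 529 and 385 CPM, Callus+AM at 355 and 427, Callus at 637 and 544 and Seedling at 2334 and 1902. AgBi replicate 1 was the highest regenerated library and still lay below both Seedling libraries. The fall was greatest in PB, 6.03-fold (log2 fold change -2.59, SE 0.344, edgeR adjusted p = 0.00033). It was least in AgBi, 2.20-fold (log2 fold change -1.14, SE 0.328, edgeR adjusted p = 0.0271). The AgBi call ended without AgBi replicate 2, Seedling replicate 1 or Seedling replicate 2 (edgeR adjusted p between 0.0619 and 0.18) and with library totals alone (edgeR adjusted p = 0.0704). SBPase fell in 3 groups with edgeR and in 5 with DESeq2, which also called it lower in AgTi (DESeq2 adjusted p = 0.0235) and Ag (0.0466). Over all genes, in either direction, DESeq2 called 9596 in AgTi and 9583 in Ag, against 8277 and 8187 with edgeR. SBPase stood at 346 and 359 CPM in PB, 1014 and 1744 in AMT+Ab, 1118 and 1133 in AMT+Hb, 1343 and 608 in AgBi and 843 and 904 in AgTi. The values in Ag were 1201 and 689 CPM, in Callus+AM 649 and 646, in Callus 557 and 509 and in Seedling 1859 and 1662. AMT+Ab replicate 2 lay inside the range of Seedling, and the lowest groups were PB, then Callus, then Callus+AM, without overlap among these 3, while AgBi replicate 2 lay between Callus and Callus+AM. SBPase fell 4.99-fold in PB (edgeR adjusted p = 0.00135), 2.72-fold in Callus+AM (edgeR adjusted p = 0.0153) and 3.30-fold in Callus (edgeR adjusted p = 0.00975). The Callus call ended without either Callus library (edgeR adjusted p 0.0692 and 0.0699). The Callus+AM call ended without Seedling replicate 1 or Callus+AM replicate 2 (edgeR adjusted p 0.0674 and 0.0659) and with library totals alone. In AgBi SBPase passed as lower without AgBi replicate 1 (edgeR adjusted p = 0.0238).

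**Figure D2:**
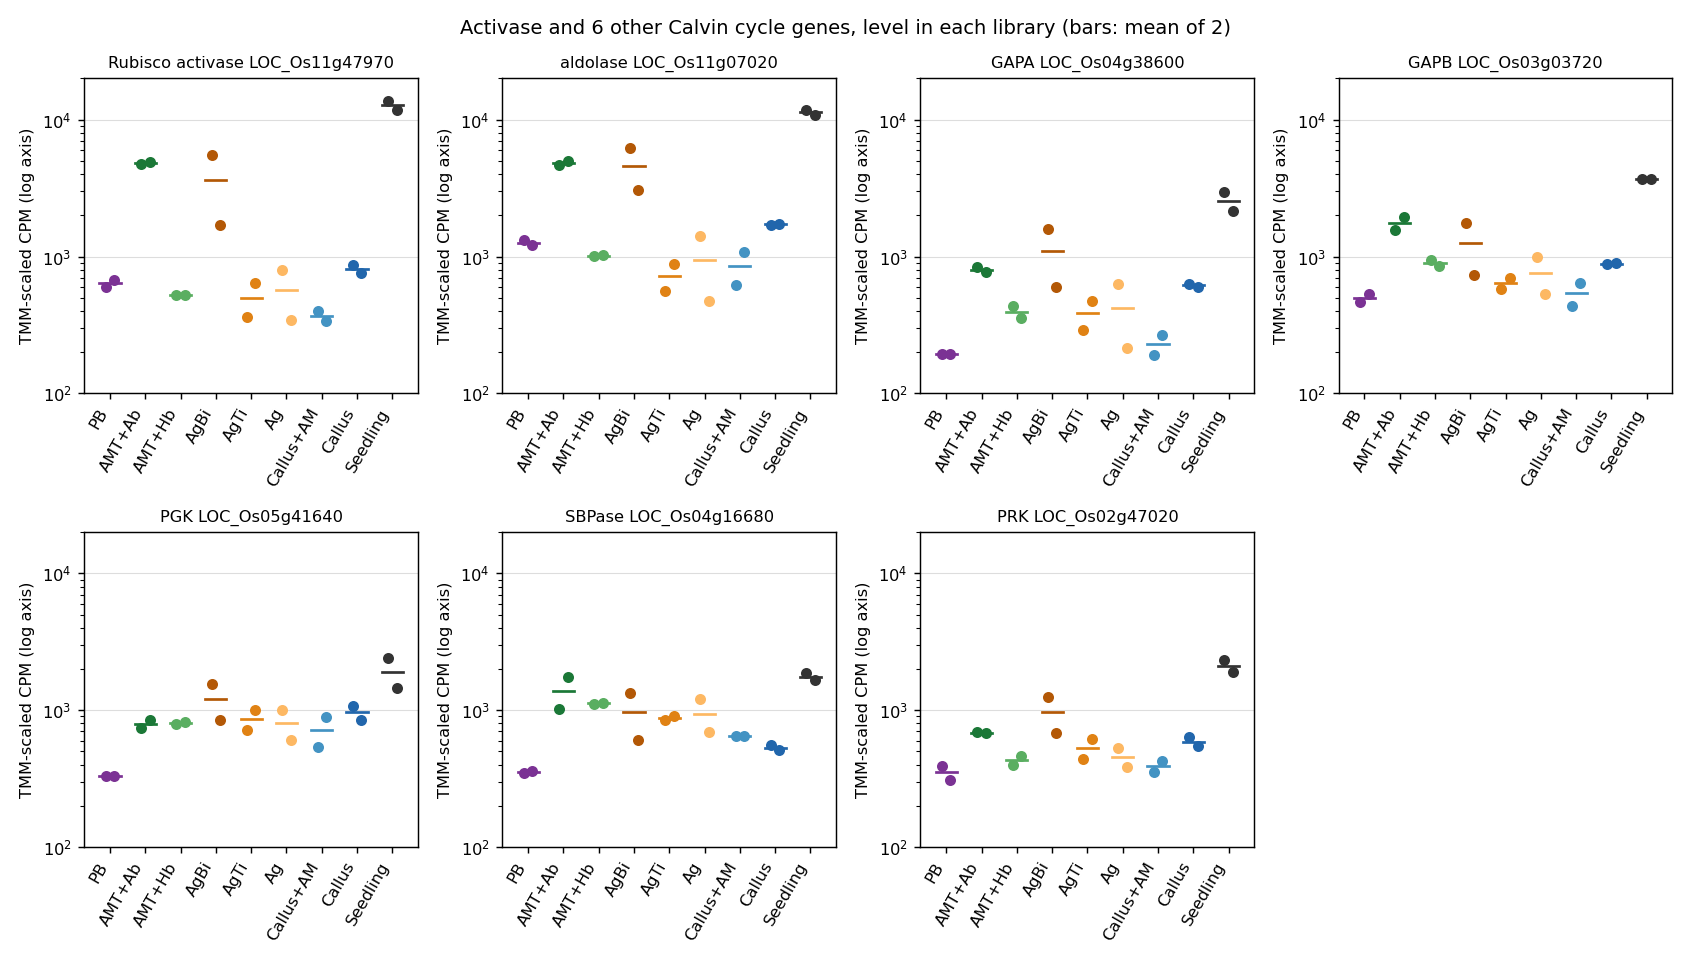
Level of activase and the 6 other Calvin cycle genes in TMM-scaled CPM (log axis) in the 18 libraries, by group; points are libraries and bars the means of 2. Activase and aldolase in AMT+Ab and AgBi lie between Seedling and the other regenerated groups, and all 7 genes are highest on average in Seedling.

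By group, PB had all 10 genes lower than Seedling, where 18.4% of all tested genes were called lower, with a median log2 fold change of the 10 of -3.02 against 0.0496 for all tested genes. All 10 calls held in every fit without 1 library. Callus+AM had 7 lower against a background of 14.1%, with a median of -2.09. AMT+Hb, AgTi, Ag and Callus had 6 lower each, against backgrounds of 16.7% in AMT+Hb, 16.4% in AgTi, 15.2% in Ag and 10.1% in Callus. AMT+Ab had 4 lower (background 14.9%, median -1.25) and AgBi had 3 lower (background 11.4%, median -1.01). None of the 10 was called higher than Seedling in any group, where the share of all tested genes called higher was 19.7% in PB, 15.7% in AMT+Ab, 18.1% in AMT+Hb, 11.7% in AgBi, 15.0% in AgTi, 15.8% in Ag, 17.4% in Callus+AM, 9.30% in Callus and 17.1% in the mean of the 8. Libraries that do not overlap those of Seedling were common at 2 libraries a group. All 10 genes were without overlap in PB (75.3% of all tested genes) and in Callus+AM (62.9%), 8 in AMT+Ab (71.5%), AMT+Hb (73.6%), Ag (65.5%) and Callus (66.2%), and 7 in AgTi (72.4%) and AgBi (62.6%). Fewer of the 10 genes were called lower in Callus without Callus replicate 1 or 2. The same held in AMT+Ab without Seedling replicate 1, AMT+Ab replicate 1 or AMT+Ab replicate 2. The calls in AgBi ended without AgBi replicate 2 or either Seedling library. Calls over all genes were also fewer in each of these fits. Without AgBi replicate 1 more of the 10 were called lower in AgBi, while calls over all genes did not become more. DESeq2 called 7 of the 10 in AMT+Ab and 6 in AgBi. Over all genes, in either direction, it called 9547 in AMT+Ab and 7834 in AgBi, against 8068 and 6098 with edgeR.

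**Figure D3:**
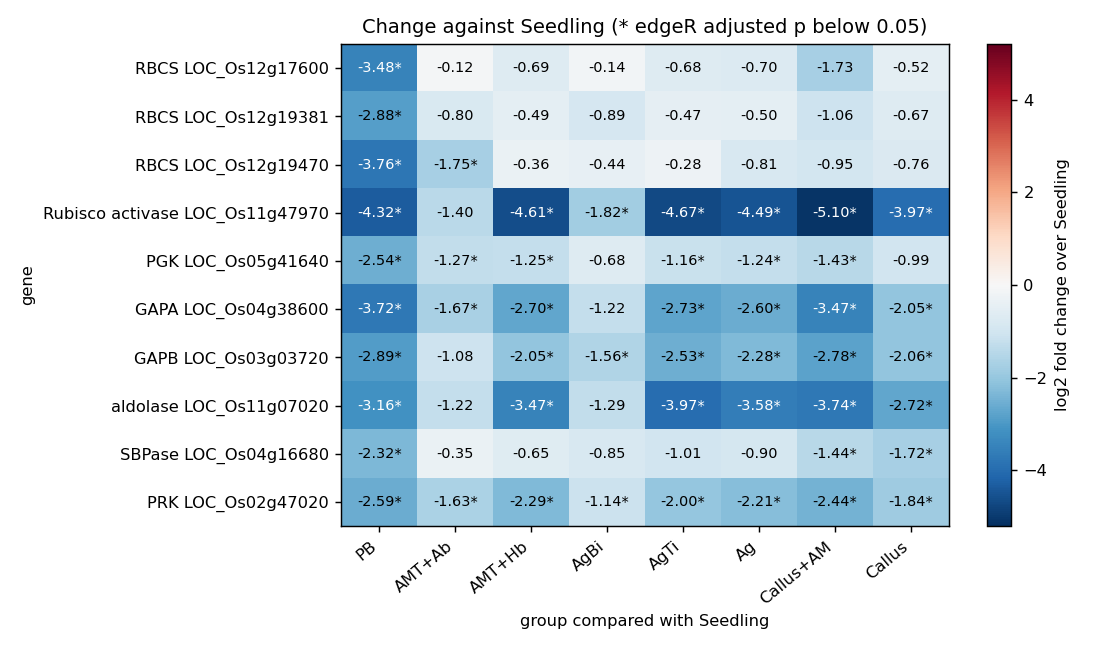
Log2 fold change over Seedling of each gene (rows) in each of the 8 regenerated groups (columns), from edgeR on all libraries; asterisks mark adjusted p below 0.05. PB is the column with 10 asterisks, and the RBCS rows hold 4 asterisks in all.

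Activase and aldolase were the genes called in both AMT+Ab against AMT+Hb and AgBi against Ag, comparisons within the shallower set of libraries. In AMT+Ab, activase averaged 4839.7 ± 142 CPM and in AMT+Hb 522 ± 0.162 CPM (SD, n = 2 each), a 9.28-fold rise in AMT+Ab (log2 fold change 3.21, SE 0.552, edgeR adjusted p = 0.00672). Aldolase averaged 4833 ± 216 CPM in AMT+Ab and 1016 ± 20.4 CPM in AMT+Hb, 4.76-fold higher in AMT+Ab (log2 fold change 2.25, SE 0.509, edgeR adjusted p = 0.0233). These were the 2 of the 10 genes called higher, against a background of 3.16% of all tested genes, and none was called lower (background 3.26%). The libraries of these groups did not overlap for 7 of the 10 genes and for 56.5% of all tested genes. The activase call ended without AMT+Hb replicate 1 or 2 (edgeR adjusted p 0.0564 and 0.0859) and the aldolase call without any 1 of the 4 libraries, AMT+Ab replicates 1 and 2 and AMT+Hb replicates 1 and 2 (edgeR adjusted p between 0.0821 and 0.171). The RBCS copy LOC_Os12g19470 averaged 379 ± 57.1 CPM in AMT+Ab and 988 ± 130.2 CPM in AMT+Hb, without overlap (edgeR adjusted p = 0.102). It passed as lower in AMT+Ab with DESeq2 (DESeq2 adjusted p = 0.0271) and with library totals alone (edgeR adjusted p = 0.0232). With library totals the median log2 fold change of all genes was itself -0.343 in this comparison, against 0 with TMM. Of all genes, DESeq2 called 2955 in either direction and library totals 2468, against 1692 with TMM in edgeR.

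In AgBi, activase averaged 3612 ± 2717 CPM and in Ag 568 ± 319.6 CPM (SD, n = 2 each), 6.36-fold higher in AgBi (log2 fold change 2.67, SE 0.540, edgeR adjusted p = 0.0051). Aldolase was 4.89-fold higher, at 4604 ± 2210.3 CPM in AgBi and 941 ± 667 CPM in Ag (log2 fold change 2.29, SE 0.510, edgeR adjusted p = 0.00798). PRK was 2.10-fold higher, at 963 ± 403 CPM in AgBi and 457 ± 102 CPM in Ag (log2 fold change 1.07, SE 0.328, edgeR adjusted p = 0.0311). These 3 rose against a background of 12.4% of all tested genes called higher, and none of the 10 fell (12.9% of all tested genes did). GAPA, not called here, passed as higher in AgBi with DESeq2 (log2 fold change 1.41, DESeq2 adjusted p = 0.0169), which called 8117 of all genes in either direction. GAPA also passed in edgeR with no filter on low counts (edgeR adjusted p = 0.0458). It passed without Ag replicate 1 (log2 fold change 2.33) or AgBi replicate 2 (1.90), and not without Ag replicate 2 or AgBi replicate 1. The PRK call ended without Ag replicate 1, Ag replicate 2 or AgBi replicate 1 (log2 fold changes 1.31, 0.87 and 0.56, in that order). It ended also with library totals alone (log2 fold change 0.74, edgeR adjusted p = 0.0889), where the median of all genes was -0.351. The activase and aldolase calls held without any 1 library, with log2 fold changes of 1.57 and 1.69 without AgBi replicate 1 and of 3.39 and 3.28 without Ag replicate 1. Without AgBi replicate 2 that of activase was 3.28. The other 7 genes had libraries that overlapped between AgBi and Ag, and 57.9% of all tested genes had libraries that did not.

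PB differed from the mean of AMT+Ab and AMT+Hb at 8 of the 10 genes, all lower in PB, where 15.8% of all tested genes were called lower and 17.4% higher. Here the RBCS copies fell most, LOC_Os12g17600 by 8.43-fold (log2 fold change -3.08, SE 0.696, edgeR adjusted p = 0.00626), LOC_Os12g19470 by 6.51-fold (log2 fold change -2.70, SE 0.454, edgeR adjusted p = 0.0015), then LOC_Os12g19381 by 4.70-fold (log2 fold change -2.23, SE 0.367, edgeR adjusted p = 0.00134). SBPase fell 3.53-fold (edgeR adjusted p = 0.00336), GAPA 2.91-fold, GAPB 2.50-fold and PGK 2.43-fold (edgeR adjusted p between 0.0168 and 0.0235). Activase passed narrowly (log2 fold change -1.32, SE 0.468, edgeR adjusted p = 0.0458). The PB libraries of activase lay between those of AMT+Ab and AMT+Hb, so the call does not describe a difference from AMT+Hb. It ended with the replicate block (edgeR adjusted p = 0.0521), with library totals alone, and without any 1 of the 6 libraries, PB replicates 1 and 2, AMT+Ab replicates 1 and 2 and AMT+Hb replicates 1 and 2 (edgeR adjusted p between 0.0735 and 0.217). Aldolase and PRK did not pass (log2 fold changes -0.81 and -0.63, edgeR adjusted p 0.173 and 0.108). Fewer of the 10 genes were called without PB replicate 1 or without PB replicate 2, and calls over all genes were fewer in both fits too. The calls of GAPA, GAPB and PGK ended without either PB library (edgeR adjusted p between 0.0792 and 0.129), that of GAPA also without AMT+Hb replicate 1 (edgeR adjusted p = 0.0552), and that of LOC_Os12g17600 without PB replicate 2 (edgeR adjusted p = 0.0638).

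**Figure D4:**
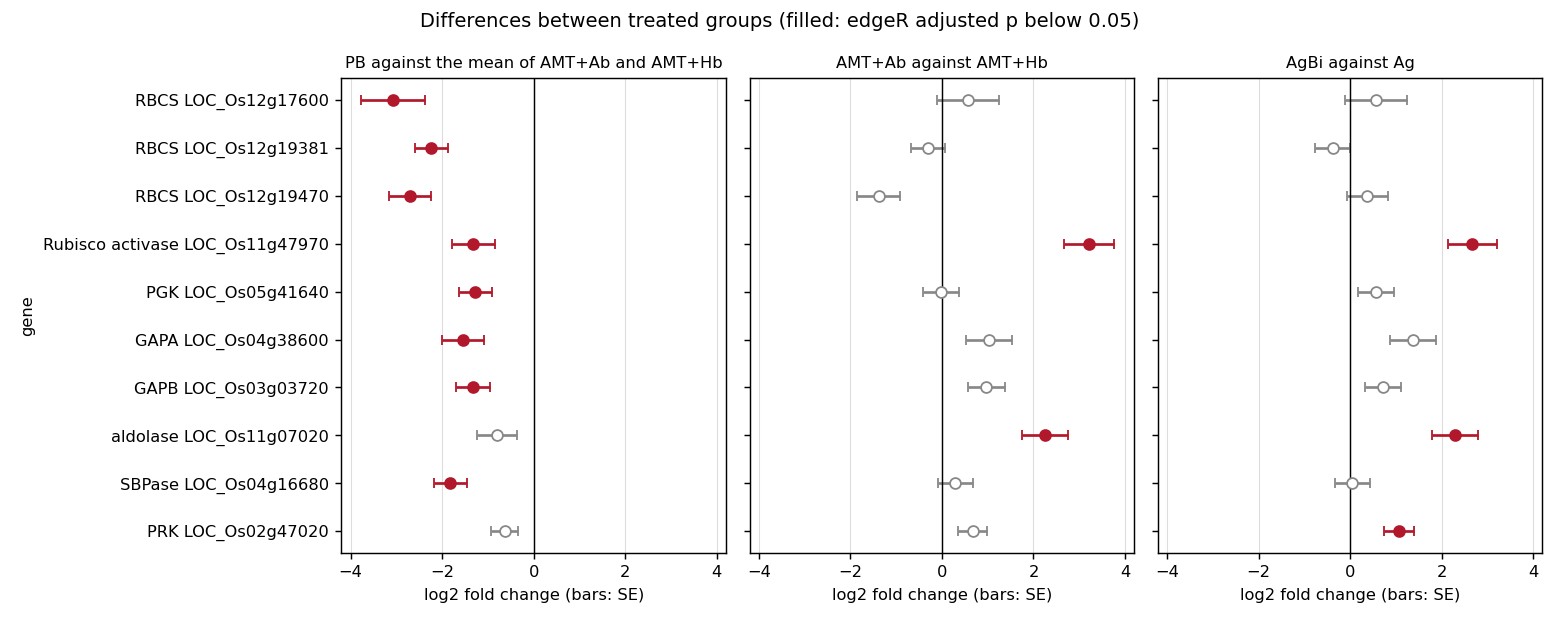
Log2 fold change with its SE (x axis) of each gene (rows) in 3 comparisons among regenerated groups; filled points passed at edgeR adjusted p below 0.05. RBCS is furthest to the left in the PB comparison, and activase and aldolase are furthest to the right in the AMT+Ab and AgBi comparisons.

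None of the 10 genes passed in Callus+AM against Callus, Ag against Callus+AM or AgTi against Ag. At an unadjusted edgeR p below 0.05 there were 2 in the first of these, activase and GAPA, and 0 in the others, and DESeq2 called 1, GAPA, in Callus+AM against Callus and 0 in the others. The background was 0.792% of all tested genes in Callus+AM against Callus, where the depth sets also differ, and 0% in both others. Over all genes, 5429 had an unadjusted edgeR p below 0.05 in Callus+AM against Callus, 3406 in Ag against Callus+AM and 1591 in AgTi against Ag, and DESeq2 called 2725, 266 and 59 in that order. The median log2 fold change of the 10 genes was -0.66 in Callus+AM against Callus (0.0601 for all tested genes), 0.52 in Ag against Callus+AM (-0.0664) and -0.0448 in AgTi against Ag (-0.0309). In Callus+AM against Callus the libraries of 8 of the 10 genes did not overlap, as for 47.5% of all tested genes, GAPA standing at 192 and 269 CPM in Callus+AM and 629 and 600.3 CPM in Callus. The Ag libraries, at 626 and 215 CPM of GAPA and 1413 and 469 CPM of aldolase, were further from each other than the Ag mean was from the AgTi or Callus+AM mean.

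Which gene stood highest per length differed by group. In Seedling it was activase, at 10854 and 9419 FPKM, above LOC_Os12g19381 at 8805 and 5082 FPKM and aldolase at 7328 and 6906 FPKM. In PB, AMT+Hb, AgTi, Ag, Callus+AM and Callus the highest mean FPKM was that of LOC_Os12g19381, at 1137 and 844 FPKM in PB, and in AMT+Ab and AgBi that of LOC_Os12g17600, at 3402 and 8053 FPKM in AMT+Ab. The top gene turned between replicates in AMT+Ab, where LOC_Os12g19381 (3848 FPKM) and activase (3757 FPKM) exceeded LOC_Os12g17600 in replicate 1, and in Ag, where LOC_Os12g17600 (6496 FPKM) exceeded LOC_Os12g19381 (6059 FPKM) in replicate 1. In FPKM, the ratio of activase to the sum of the 3 listed RBCS copies was 0.266 and 0.415 in PB, 0.507 and 0.323 in AMT+Ab and 0.349 and 0.195 in AgBi, and 0.626 and 0.947 in Seedling. It was 0.0462 and 0.0438 in AMT+Hb, 0.0367 and 0.0464 in AgTi, 0.0489 and 0.0532 in Ag, 0.0619 and 0.0462 in Callus+AM and 0.0665 and 0.0791 in Callus. The libraries thus fell into those at 0.195 or more and those at 0.0791 or less, and PB, with low levels of both, was among the higher by this ratio. The ratio of GAPA to GAPB, the partner subunits of the dehydrogenase, was 0.533 and 0.432 in PB, 0.657 and 0.489 in AMT+Ab, 0.556 and 0.507 in AMT+Hb and 0.542 and 0.529 in Callus+AM. It was 1.11 and 1.003 in AgBi, 0.615 and 0.820 in AgTi, 0.777 and 0.491 in Ag, 0.939 and 1.03 in Callus and 1.13 and 0.879 in Seedling. In FPKM the AgBi and Callus libraries were thus within the range of the Seedling libraries, although both genes averaged less there than in Seedling. FPKM and CPM of GAPA did not keep 1 proportion between libraries (2336 FPKM at 2954 CPM in Seedling replicate 1, 1130 FPKM at 1582 CPM in AgBi replicate 1). By CPM, both AgBi libraries had a higher ratio than both Seedling libraries, and Ag replicate 1 and AgTi replicate 2 lay within the Seedling range. The ratio of aldolase to SBPase was 3.78 and 3.36 in PB, 4.55 and 2.83 in AMT+Ab, 4.56 and 4.96 in AgBi, 3.02 and 3.33 in Callus and 6.22 and 6.46 in Seedling, and at most 1.65 in every library of AMT+Hb, AgTi, Ag and Callus+AM. These ratios are descriptions over 2 libraries a group and were not tested.

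**Figure D5:**
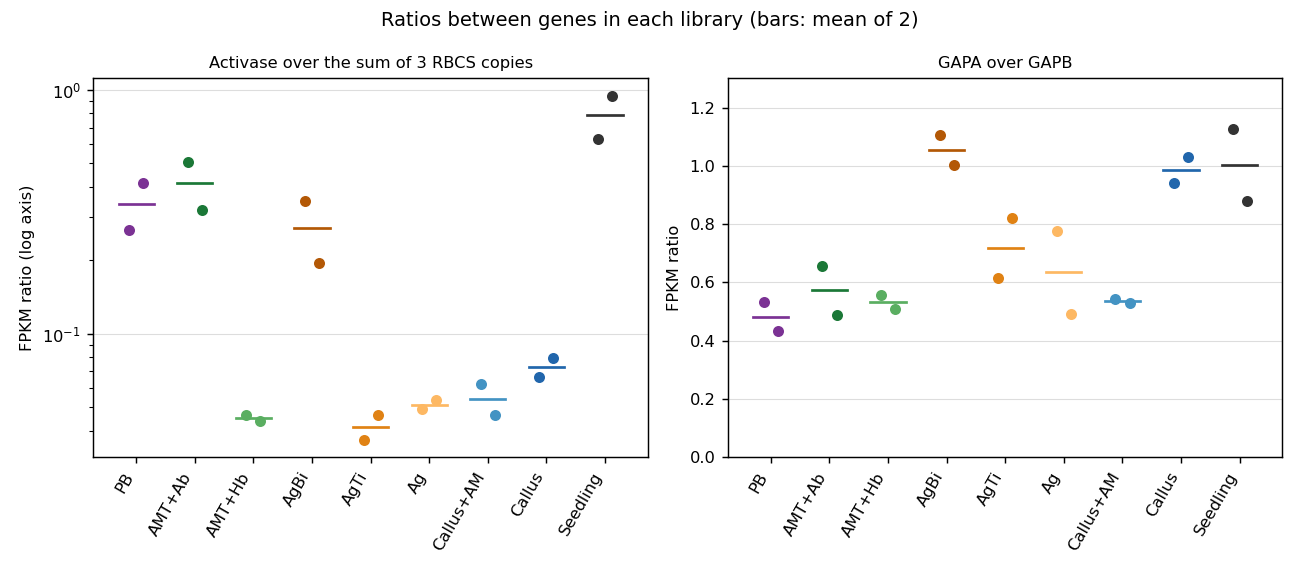
Ratio in FPKM of activase to the sum of the 3 listed RBCS copies (left, log axis) and of GAPA to GAPB (right) in the 18 libraries, by group; points are libraries and bars the means of 2. Activase over RBCS is at 0.195 or more in PB, AMT+Ab, AgBi and Seedling and at 0.0791 or less elsewhere.

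Together the 10 genes took 0.579 and 0.539% of all counts in the PB libraries, 2.05 and 2.35% in AMT+Ab, 1.65 and 1.71% in AMT+Hb and 2.82 and 1.37% in AgBi. They took 1.42 and 2.02% in AgTi, 2.04 and 1.04% in Ag, 1.08 and 1.11% in Callus+AM, 1.72 and 1.35% in Callus and 3.94 and 3.16% in Seedling. The share was therefore higher in both Seedling libraries than in any regenerated library, lowest in PB, and within AgBi and within Ag the libraries differed by about as much as many groups did. Among 18856 other genes with a mean log2 CPM of at least 1, the profile most like the mean standardised profile of the 10 over the 18 libraries, which share groups and depth sets, was that of LOC_Os12g23180 (Pearson r = 0.973), followed by LOC_Os07g08030 (r = 0.960), and 17 genes exceeded 0.9. The most opposed were LOC_Os08g25010 (r = -0.900) and LOC_Os01g74152 (r = -0.893). LOC_Os12g23180 averaged 255 CPM in PB and 2013 CPM in Seedling, and LOC_Os08g25010 averaged 25.2 CPM in PB and 5.67 CPM in Seedling. The files give no name for these 4 identifiers.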

How the data were processed

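RNA-seq of leaves was analysed in 18 libraries, 9 groups of 2. The deposited count table holds the authors' estimated counts for each gene, 0.707% of them not whole. The deposited FPKM were scaled by the authors for gene length and library size. TopHat, Cuffnorm and Cuffdiff are named in the submitters' processing notes; the genome build, annotation, strand setting and versions remain not given in the sources used here. Other data types of the series were not analysed here.

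Counts were rounded and tested with edgeR 4.0.16 in R 4.3.3: TMM factors, filterByExpr by group, a robust quasi-likelihood fit over all 18 libraries without a replicate block, 15 contrasts and a test of any difference among the groups. P-values were adjusted by Benjamini-Hochberg over 26374 genes and called below 0.05. The standard error is the log2 fold change divided by the square root of F. FPKM served for levels between genes and ranks, without a test. The script was tested on simulated data. The p-values weigh a group difference against a spread estimated over all 18 libraries, with information shared across genes. That spread rests on 2 libraries a group. All members are named; other genes are the 2 with the highest and the 2 with the lowest correlation with the members' mean profile. Members and lists were chosen with earlier results of these data known. A list of further pathway enzymes matched 0 identifiers, since the reference table pairs none of these identifiers with names, and was not run. No sequence is shown, as none was given for these identifiers. Alternatives were relative log expression factors, no filter, DESeq2 1.42.0, a replicate block and leaving out each library, and, chosen after seeing the data, library sizes implied by FPKM and library totals without TMM.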

Additional observations from a re-analysis of the deposited data

How the results depend on the processing

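Of 70 calls of a gene in a comparison, all kept their direction and call with relative log expression factors, no filter on low counts, library sizes implied by FPKM and DESeq2. The replicate block lost 2 (PGK in AgTi against Seedling, edgeR adjusted p = 0.0573, and activase in PB against the AMT mean, edgeR adjusted p = 0.0521) and library totals without TMM lost 12. The labels do not say what the replicate numbers share. Over 36 pairs of groups the deviations of same-numbered libraries correlated between -0.511 and 0.247 (median -0.0262), above 0.1 in 9. These values cannot decide whether some groups were paired by number. Of 422 fits without 1 library, 358 kept the call, 64 lost it and 0 reversed it, and 44 of the 70 calls were never lost. DESeq2 called 7 genes in AMT+Ab against Seedling, 6 in AgBi against Seedling and 1 in Callus+AM against Callus. Of all genes it called 9547, 7834 and 2725 there, in that order and in either direction. It also added GAPA as higher in AgBi against Ag and LOC_Os12g19470 as lower in AMT+Ab against AMT+Hb. Without 1 library the count was 3 to 6 in Callus, 0 to 6 in AgBi, 1 to 3 in AMT+Ab, 5 to 10 in the mean of the 8 groups, 0 to 1 in AMT+Ab against AMT+Hb and 3 to 7 in PB against the AMT mean.

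Among RBCS changes that had not passed, library totals without TMM put the log2 fold change against Seedling above 0 for LOC_Os12g17600 in AMT+Ab (0.18), AgBi (0.18) and AgTi (0.0879), LOC_Os12g19381 in AMT+Hb (0.19), AgTi (0.30) and Ag (0.14), and LOC_Os12g19470 in AMT+Hb (0.32) and AgTi (0.48). In the other direction, DESeq2 called 3 of them lower (LOC_Os12g17600 in Callus+AM, LOC_Os12g19381 in AgBi and Callus+AM), relative log expression factors, FPKM-implied sizes and the fit without Seedling replicate 2 called LOC_Os12g19381 lower in Callus+AM, and the fit without Ag replicate 1 called LOC_Os12g17600 lower in Ag. With library totals the median of all genes was itself 0.307 to 0.866. Without 1 library the change of LOC_Os12g17600 spanned -0.85 to 0.39 in AMT+Ab, -0.69 to 0.37 in AgBi and -2.47 to 0.0665 in Ag, that of LOC_Os12g19381 -0.76 to 0.065 in AgTi, and that of LOC_Os12g19470 -1.24 to 0.0674 in AgBi and -0.56 to 0.0667 in AgTi. The lowest count of any of the 10 genes in a library was 2777. The cause of the lost calls was not tested.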
